A study of Mus musculus with 4 samples.

Results

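The Zscan4 copies are the 9 genes of the deposited table whose symbol starts with Zscan4, out of 55401 genes in all. They were chosen by name, after the counts of the family had been seen to lie higher in Haspin-KO than in WT cells, so that their WT and Haspin-KO values below are a description and carry no test. RNA-seq of bulk RNA was available for 4 libraries of E14 cells, a line of mouse embryonic stem cells (mESCs), with 2 WT and 2 Haspin-KO libraries. Per the paper, the cells were grown in knockout-DMEM with fetal bovine serum, Lif and 2i, the inhibitor pair that holds mESCs in the naive state. It names no further treatment of the cells used for RNA-seq. Haspin is a kinase that phosphorylates histone H3 in mitosis. Its knockout had been made by transfection with CRISPR/Cas9 and a pair of guide RNAs, followed by puromycin selection and picking of single clones. The labels did not give the Haspin-KO clone of each library. Nothing stated whether the 2 libraries of a group came from separate cultures, so that the spread between them may be technical.

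Zscan4 proteins carry a SCAN domain, through which such factors pair with each other, and C2H2 zinc fingers, which bind DNA. In the mouse the genes are switched on in the 2-cell embryo, and in cultures of mESCs they are on in a small, changing fraction of the cells at any time. They are known for lengthening telomeres through recombination and for guarding genome stability in mESCs, and are used as markers of the 2-cell-like state.

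The 9 copies formed a cluster on chromosome 7 of mm10 (GRCm38), from 10794242 to 11614112, a span of 819.9 kb with 4 copies on the plus and 5 on the minus strand. Each copy had 4 exons in its longest transcript, and none overlapped another annotated gene. Zscan4c (ENSMUSG00000054272, chr7:11005745-11010547, plus strand), Zscan4d (ENSMUSG00000090714, chr7:11161374-11166159, minus), Zscan4f (ENSMUSG00000070828, chr7:11397915-11402318, plus) and Zscan4b (ENSMUSG00000095339, chr7:10900740-10905050, minus) were protein-coding in both GENCODE release 21 and RefSeq. Zscan4e (ENSMUSG00000095936, chr7:11306378-11310682, minus), Zscan4-ps1 (ENSMUSG00000110103, chr7:11065139-11069691, minus), Zscan4-ps2 (ENSMUSG00000110190, chr7:11514310-11519111, plus) and Zscan4-ps3 (ENSMUSG00000109969, chr7:11609308-11614112, plus) had a coding sequence in GENCODE and were pseudogenes in RefSeq. Zscan4a (ENSMUSG00000110097, chr7:10794242-10799057, minus) was a pseudogene in both. The annotated coding sequences were 505 codons long in Zscan4b and Zscan4e and 506 codons long in Zscan4c, Zscan4d, Zscan4f and the 3 copies named ps.

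The transcripts were nearly identical. Over the 36 pairs of copies, identity of the longest transcripts ranged from 96.63% to 99.78%, with a median of 97.43%. Zscan4f and Zscan4-ps2 differed at 4 of 1806 aligned bases and Zscan4b and Zscan4e at 5 of 1722, whereas Zscan4c differed from Zscan4f at 9 aligned bases. A stretch of 100 bases in exon 4 is shown for all 9 copies because it is where a read would or would not tell them apart. It was picked as the coding stretch without gaps in which the most positions differ among the copies. It is therefore not typical of the transcripts. Each is written 5′ to 3′ on the strand of the gene, from the GENCODE transcripts, and capitals mark bases that differ from the majority of the copies. It lies at chr7:11009074-11009173 in Zscan4c.
Zscan4a: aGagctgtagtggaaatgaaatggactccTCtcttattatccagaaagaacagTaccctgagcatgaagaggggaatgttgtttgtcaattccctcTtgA
Zscan4b: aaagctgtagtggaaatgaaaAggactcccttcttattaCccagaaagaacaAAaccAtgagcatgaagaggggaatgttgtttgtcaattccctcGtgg
Zscan4c: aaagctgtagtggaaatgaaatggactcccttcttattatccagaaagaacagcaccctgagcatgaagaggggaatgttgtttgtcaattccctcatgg
Zscan4-ps1: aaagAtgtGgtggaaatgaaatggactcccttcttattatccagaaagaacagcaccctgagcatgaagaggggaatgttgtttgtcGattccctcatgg
Zscan4d: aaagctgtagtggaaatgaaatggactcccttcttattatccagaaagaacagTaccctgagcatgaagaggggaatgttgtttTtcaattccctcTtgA
Zscan4e: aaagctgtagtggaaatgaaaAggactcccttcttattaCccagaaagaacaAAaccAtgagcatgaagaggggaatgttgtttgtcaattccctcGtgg
Zscan4f: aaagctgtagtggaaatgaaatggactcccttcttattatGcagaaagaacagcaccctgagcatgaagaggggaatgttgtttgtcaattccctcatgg
Zscan4-ps2: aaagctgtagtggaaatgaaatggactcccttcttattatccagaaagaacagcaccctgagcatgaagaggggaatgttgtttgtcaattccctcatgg
Zscan4-ps3: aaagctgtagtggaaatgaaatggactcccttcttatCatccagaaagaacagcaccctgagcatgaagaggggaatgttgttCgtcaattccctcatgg
In this stretch 17 of 100 columns differed among the copies. Zscan4b and Zscan4e carried the same sequence, with 6 bases off the majority, and so did Zscan4c and Zscan4-ps2, with 0. Zscan4f stood 1 base away from that pair and Zscan4a 6 bases. A read covering the whole stretch would match only 1 of the 9 copies if it came from Zscan4a, Zscan4-ps1, Zscan4d, Zscan4f or Zscan4-ps3, and 2 copies if it came from Zscan4b, Zscan4e, Zscan4c or Zscan4-ps2.

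The sequences just upstream of the start sites are shown since the copies lay higher together in Haspin-KO cells. RefSeq promoters (GRCm38.p6) were matched for 4 of the 9 copies. The 250 bases before the RefSeq start are written 5′ to 3′ on the strand of the gene, at chr7:10905051-10905300 (minus) for Zscan4b, chr7:11005495-11005744 (plus) for Zscan4c, chr7:11166149-11166398 (minus) for Zscan4d and chr7:11397665-11397914 (plus) for Zscan4f. Capitals mark TATAAA, the core of a TATA box.
Zscan4b: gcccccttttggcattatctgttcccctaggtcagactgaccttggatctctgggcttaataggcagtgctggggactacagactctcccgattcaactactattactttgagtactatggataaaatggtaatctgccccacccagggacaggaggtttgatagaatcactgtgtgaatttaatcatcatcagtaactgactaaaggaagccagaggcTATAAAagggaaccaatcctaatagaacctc
Zscan4c: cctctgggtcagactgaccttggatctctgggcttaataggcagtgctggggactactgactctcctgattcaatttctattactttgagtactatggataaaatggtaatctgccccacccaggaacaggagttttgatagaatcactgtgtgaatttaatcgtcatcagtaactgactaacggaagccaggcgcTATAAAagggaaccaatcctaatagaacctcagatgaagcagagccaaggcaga
Zscan4d: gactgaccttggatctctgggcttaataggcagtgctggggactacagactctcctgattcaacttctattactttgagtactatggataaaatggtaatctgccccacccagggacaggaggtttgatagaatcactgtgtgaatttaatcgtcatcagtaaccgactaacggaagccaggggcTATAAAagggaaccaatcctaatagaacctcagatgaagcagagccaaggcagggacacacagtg
Zscan4f: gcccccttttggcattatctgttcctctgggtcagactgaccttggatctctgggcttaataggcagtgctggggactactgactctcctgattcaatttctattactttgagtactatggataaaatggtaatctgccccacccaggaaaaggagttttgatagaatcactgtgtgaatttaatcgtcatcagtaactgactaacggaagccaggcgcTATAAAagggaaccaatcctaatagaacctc
TATAAA was found in 4 of 4 copies, against 13.6% of the 32851 mouse promoters of the same table, searched on both strands from 250 bases before to 50 after the start. It began at -31 from the annotated start in Zscan4b and Zscan4f, at -54 in Zscan4c and at -65 in Zscan4d. The binding motif of Dux occurred in 0 of 4 copies and in 0.0335% of promoters, and TGCACAC, bound by Zscan4 itself, in 0 of 4 and in 4.4%, which says only that these letters are not in these stretches. Aligned from 250 bases before to 50 after the start, the 4 promoters had identities from 95.31% for Zscan4b with Zscan4c to 99.28% for Zscan4c with Zscan4f.

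In WT cells the 9 copies together held 1867 and 1472 reads in replicates 1 and 2, of library totals of 21834847 and 17452307 counts. In Haspin-KO cells they held 3282 and 2486 reads, of 14207828 and 14436750 counts. Scaled by the library total (TMM-scaled CPM), their sum was 85.5 and 84.9 in the WT libraries and 228.5 and 174.1 in the Haspin-KO libraries. Both Haspin-KO libraries lay above both WT libraries. With exact Poisson 95% intervals, which cover counting error only, the sums were 81.6 to 89.4 and 80.6 to 89.4 in WT and 220.8 to 236.5 and 167.3 to 181.1 in Haspin-KO. The means were 85.2 ± 0.389 CPM in WT and 201.3 ± 38.5 CPM in Haspin-KO (SD, n = 2 each). The log2 fold change of the summed counts was 1.24, with a standard error of 0.12. The WT libraries agreed within counting error, whereas the Haspin-KO libraries differed 1.31-fold from each other, standing 2.68 and 2.04 times above the WT mean in replicates 1 and 2. In bulk RNA, more cells expressing Zscan4 and more Zscan4 RNA per cell cannot be told apart.

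Among the copies that both annotations class as protein-coding, Zscan4d, known as the main copy of the 2-cell embryo, had the highest counts. Its level was 18.1 and 17.0 CPM in the WT libraries and 50.1 and 41.7 CPM in the Haspin-KO libraries. Zscan4c, known as the main copy in mESCs, stood at 14.1 and 10.2 CPM in WT and at 29.9 and 27.2 CPM in Haspin-KO. In Zscan4d the WT libraries lay close to each other, whereas in Zscan4c the 2 WT libraries stood further apart than the 2 Haspin-KO libraries. Zscan4f had 5.996 and 5.13 CPM in WT and 14.1 and 9.67 CPM in Haspin-KO. Zscan4b, the copy with the fewest reads, had 55 and 57 counts in WT and 103 and 76 counts in Haspin-KO, or 2.52 and 3.29 CPM against 7.17 and 5.32 CPM. In each of these copies the groups did not overlap.

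The copies that RefSeq classes as pseudogenes lay in the same range. Zscan4a, a pseudogene in both annotations, had the second highest counts of the family, with 15.2 and 16.7 CPM in WT and 37.3 and 28.4 CPM in Haspin-KO. Zscan4e had 9.02 and 8.42 CPM in WT and 27.2 and 17.8 CPM in Haspin-KO. The 2 Haspin-KO libraries stood far apart in Zscan4e, and its WT libraries close together. Zscan4-ps3 had 9.52 and 10.4 CPM in WT and 29.1 and 20.6 CPM in Haspin-KO. Zscan4-ps2 had 6.64 and 7.96 CPM in WT and 20.8 and 13.6 CPM in Haspin-KO. Zscan4-ps1 had 4.39 and 5.88 CPM in WT and 12.9 and 9.74 CPM in Haspin-KO. All of these pseudogene copies were likewise lower in both WT libraries than in either Haspin-KO library.

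**Figure D1:**
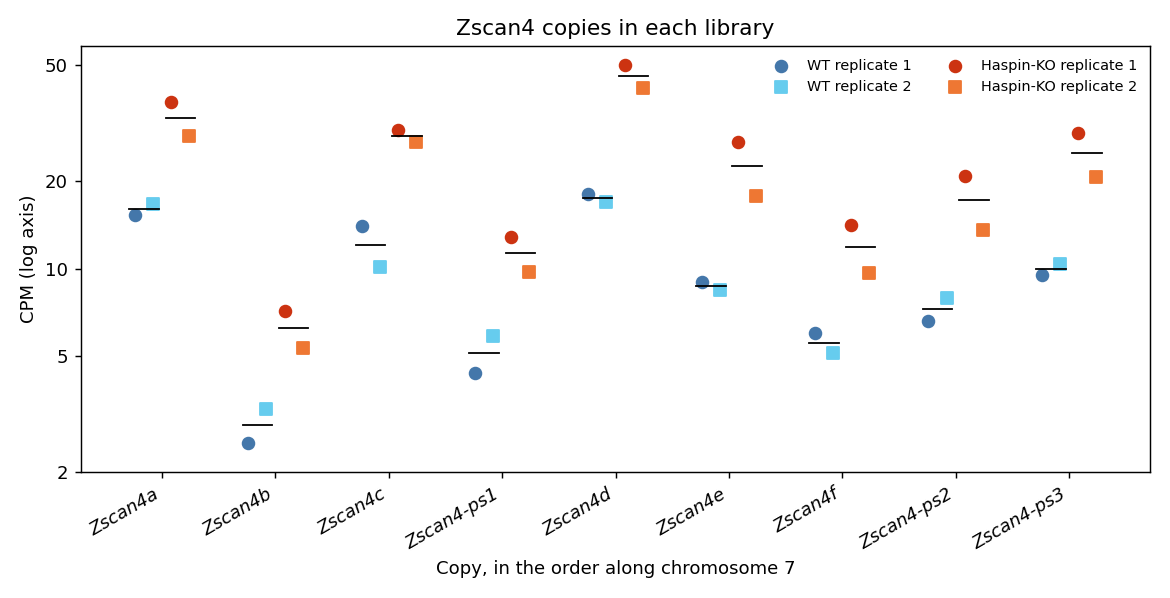
Level of each Zscan4 copy in CPM (log axis) in the 2 WT and 2 Haspin-KO libraries, in the order of the copies along chromosome 7, with black bars for the group means. In each of the 9 copies both Haspin-KO points lie above both WT points, and Haspin-KO replicate 1 lies above replicate 2.

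Both Haspin-KO libraries exceeded both WT libraries in 9 of 9 copies, beside 25.3% of the 15580 genes tested. The log2 fold changes of the copies had a median of 1.23, beside -0.0039 over all genes tested. They ranged from 1.04 in Zscan4a (standard error 0.15) to 1.39 in Zscan4d (standard error 0.12), a range of 0.35. Between these lay Zscan4f at 1.09, Zscan4b at 1.11, Zscan4-ps1 at 1.15, Zscan4c at 1.23, Zscan4-ps2 at 1.24, Zscan4-ps3 at 1.32 and Zscan4e at 1.36. Standard errors of the 9 values ran from 0.12 to 0.25, and each gap between neighbours in this order was smaller than the lowest of them. With edgeR, 8 of 9 copies changed over 2-fold at an adjusted p under 0.05 and were called higher, beside 0.327% of the genes tested, and Zscan4b was the copy not called. DESeq2 called 8 of 9 as well, beside 0.374% of the genes it gave an adjusted p, again without Zscan4b. As the family was chosen on this same contrast, nothing is read from these counts. limma called 0 of 9 at either pseudocount. It called 0.142% of its genes higher on log2(FPKM + 0.1) and 0 of 14817 genes on log2(FPKM + 1). edgeR called 9 with the replicate block, beside 1.54% of the genes tested, and 9 without the filter on low counts, beside 0.436%. With 1 library left out, the lone library of its group was assumed to vary like the other group. The log2 fold change of the sum was then 1.24 without WT replicate 1 and 1.24 without WT replicate 2. It was 1.03 without Haspin-KO replicate 1 and 1.42 without Haspin-KO replicate 2. Which copies were called changed with the library left out, and nothing is read from those calls.

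**Figure D2:**
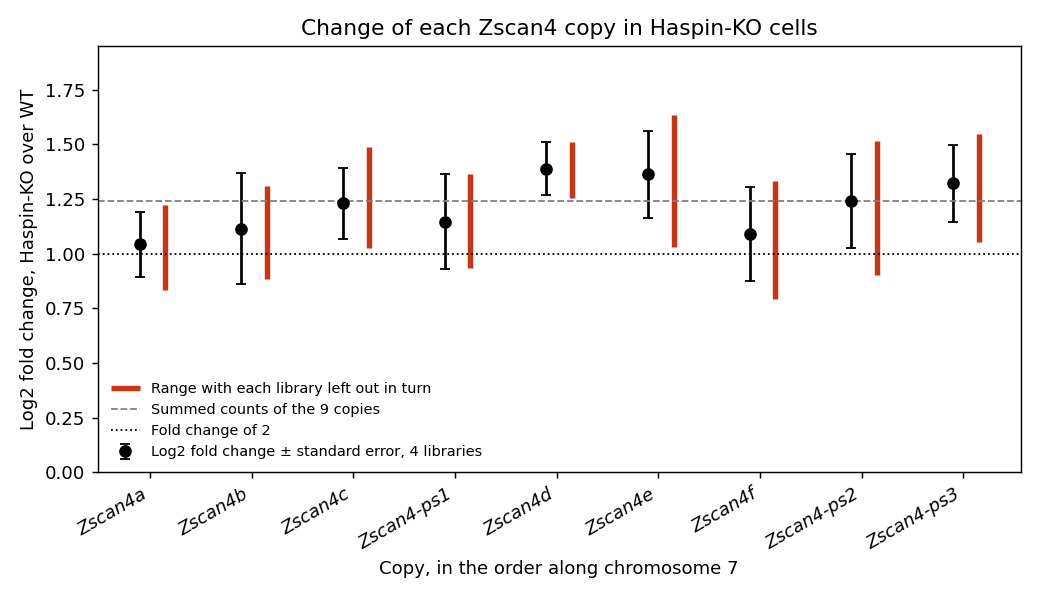
Log2 fold change of Haspin-KO over WT for each copy (black points, with the standard error from 2 libraries per group) and its range when each of the 4 libraries was left out in turn (red bars). The dashed line is the summed family at 1.24 and the dotted line a fold change of 2, and the red bars of Zscan4a, Zscan4b, Zscan4-ps1, Zscan4f and Zscan4-ps2 reach below the dotted line.

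The copies differed in the same direction between the Haspin-KO libraries and in both directions between the WT libraries. As they share reads, they are not 9 separate observations, and the share of all genes with that direction is not given here. Haspin-KO replicate 1 stood above replicate 2 in 9 of 9 copies, by a median of 0.43 on the log2 scale. The difference was smallest in Zscan4c, at 0.13, and largest in Zscan4-ps2, at 0.62. WT replicate 1 stood above replicate 2 in 4 copies and below it in 5, with a median difference of -0.13. The WT difference was highest in Zscan4c, at 0.47, and lowest in Zscan4-ps1, at -0.42.

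The make-up of the family was described by the share of each copy in the Zscan4 counts of its own library, which depends neither on library size nor on the level of the whole family. Zscan4d made up 21.2% and 19.97% of the family in the WT libraries and 21.9% and 23.97% in the Haspin-KO libraries. Zscan4a made up 17.8% and 19.7% in WT and 16.3% in each Haspin-KO library. These were the 2 copies whose libraries did not overlap between the groups, with mean shares 2.38 points higher in Haspin-KO for Zscan4d and a difference of -2.44 points for Zscan4a. Single libraries moved these values: the difference for Zscan4a was -1.50 points without WT replicate 2 and -3.37 without WT replicate 1, and that for Zscan4d was 1.34 points without Haspin-KO replicate 2 and 3.41 without Haspin-KO replicate 1. In the other copies the libraries of the 2 groups overlapped. Mean shares of WT and Haspin-KO were 11.7% and 12.3% for Zscan4-ps3, 10.2% and 11.1% for Zscan4e, 8.57% and 8.46% for Zscan4-ps2, 6.53% and 5.87% for Zscan4f, 6.04% and 5.61% for Zscan4-ps1 and 3.41% and 3.10% for Zscan4b. With 2 libraries against 2, the smallest two-sided p that an exact permutation test could give was 0.333, so that no difference in share could pass a threshold. Under shuffled labels a copy separates in either direction with that same probability of 0.333, so that nothing is read from 2 of 9.

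Zscan4c varied most between libraries of the same group. It made up 16.4% of the family in WT replicate 1 (exact Clopper-Pearson 95% interval 14.8 to 18.2) and 11.96% in WT replicate 2 (10.3 to 13.7). Its shares in Haspin-KO were 13.1% and 15.6%, inside the WT range. Zscan4c, Zscan4f and Zscan4-ps2, which are nearly identical to each other, were also summed, and then made up 29.3% ± 2.72 of the family in WT and 28.7% ± 0.449 in Haspin-KO (SD, n = 2 each). Zscan4b with Zscan4e made up 13.6% ± 0.207 and 14.1% ± 1.24. These 2 sums were formed after the sequences had been compared.

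**Figure D3:**
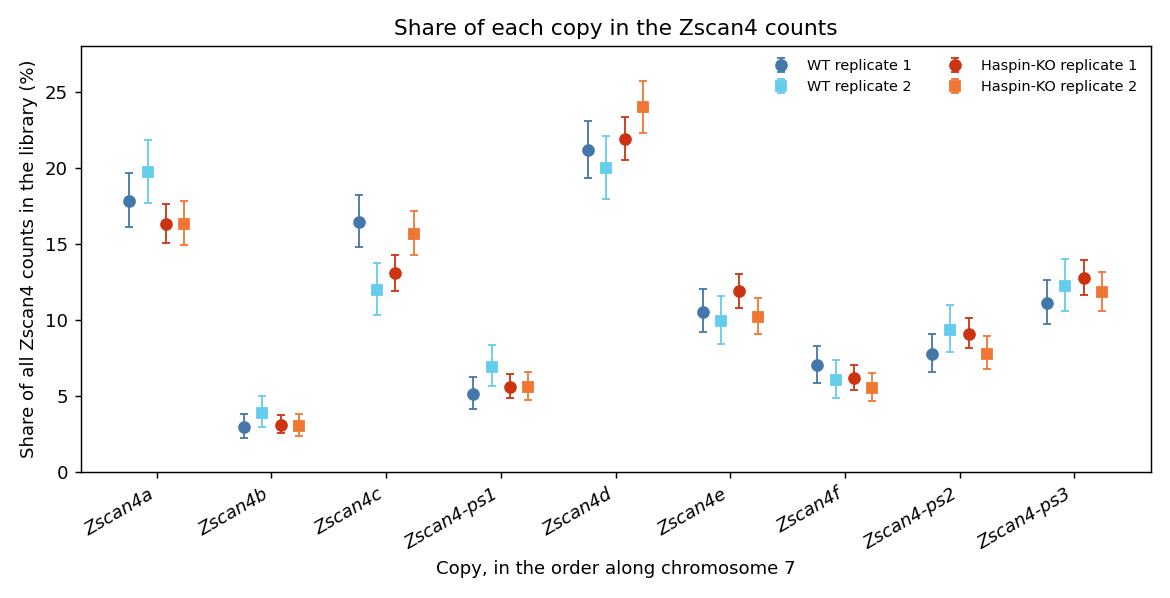
Share of each copy in all Zscan4 counts of its library, in percent, with exact Clopper-Pearson 95% intervals, for the 2 WT and 2 Haspin-KO libraries. The points of the groups do not overlap for Zscan4a, lower in Haspin-KO, and Zscan4d, higher in Haspin-KO, though their intervals overlap in part. The 2 WT points of Zscan4c lie apart, at 16.4% and 11.96%.

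Levels of different copies were compared per exonic length, in FPKM. In WT cells Zscan4d stood highest, at 7.69 ± 0.389 FPKM, followed by Zscan4a at 6.99 ± 0.424, Zscan4c at 5.31 ± 1.24 and Zscan4e at 4.85 ± 0.255 (SD, n = 2 each). Zscan4-ps3 had 4.36 FPKM, Zscan4-ps2 3.20, Zscan4f 2.83, Zscan4-ps1 2.54 and Zscan4b 1.61. The libraries of Zscan4c and Zscan4e overlapped, and so did those of Zscan4-ps2 and Zscan4f and those of Zscan4f and Zscan4-ps1, while the other neighbours in the WT order were separate in both libraries. In Haspin-KO cells Zscan4d again stood highest, at 20.2 ± 2.90 FPKM, and Zscan4b lowest, at 3.47 ± 0.778. Of the neighbours in the Haspin-KO order, only Zscan4d over Zscan4a and Zscan4-ps1 over Zscan4b had separate libraries. The ratio of Zscan4d to Zscan4b was 5.69 and 4.09 in the WT libraries and 5.54 and 6.22 in the Haspin-KO libraries.

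How far a count belongs to one copy depends on the sequence. The share of 100-base windows of a copy found in no other annotated transcript of the mouse was 76.6% in Zscan4-ps1, 70.4% in Zscan4d, 60.9% in Zscan4a and 47.8% in Zscan4-ps3. It was 27.2% in Zscan4c, 25.4% in Zscan4-ps2, 23.7% in Zscan4b, 19.4% in Zscan4f and 18.5% in Zscan4e. Zscan4b shared 75.4% of its windows with Zscan4e, and Zscan4f 67.5% of its own with Zscan4-ps2. The median over the copies was 27.2% for windows of 100 bases, 14.5% for 50 bases and 39.0% for 150 bases. How reads that map to several places were counted, and the read length, were not given in the sources used here. If only reads of a single place had been counted, levels would be set by the windows of a copy alone. Per 1000 such 100-base windows, Zscan4e stood highest, at 26.8 ± 1.30 CPM in WT and 69.1 ± 20.4 CPM in Haspin-KO, and Zscan4-ps1 lowest, at 3.50 ± 0.718 and 7.71 ± 1.52 CPM (SD, n = 2 each). On that scale Zscan4d and Zscan4b held ranks 6 and 8 in WT, and their ratio was 1.86, averaged over the libraries. It does not measure the spread of the copies there. The order of the copies by level therefore depended on the length scale. Fold changes and shares are not scaled by length, so that shares also follow the length and the windows of each copy. Both rest on how reads that fit several copies were counted. What this did to the range of fold changes, from 1.04 to 1.39, was not tested. Across the 9 copies, which share reads, the percent of such windows had a Pearson r of 0.42 and a Spearman rho of 0.28 with the mean WT FPKM, and of 0.018 and 0.033 with the log2 fold change.

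**Figure D4:**
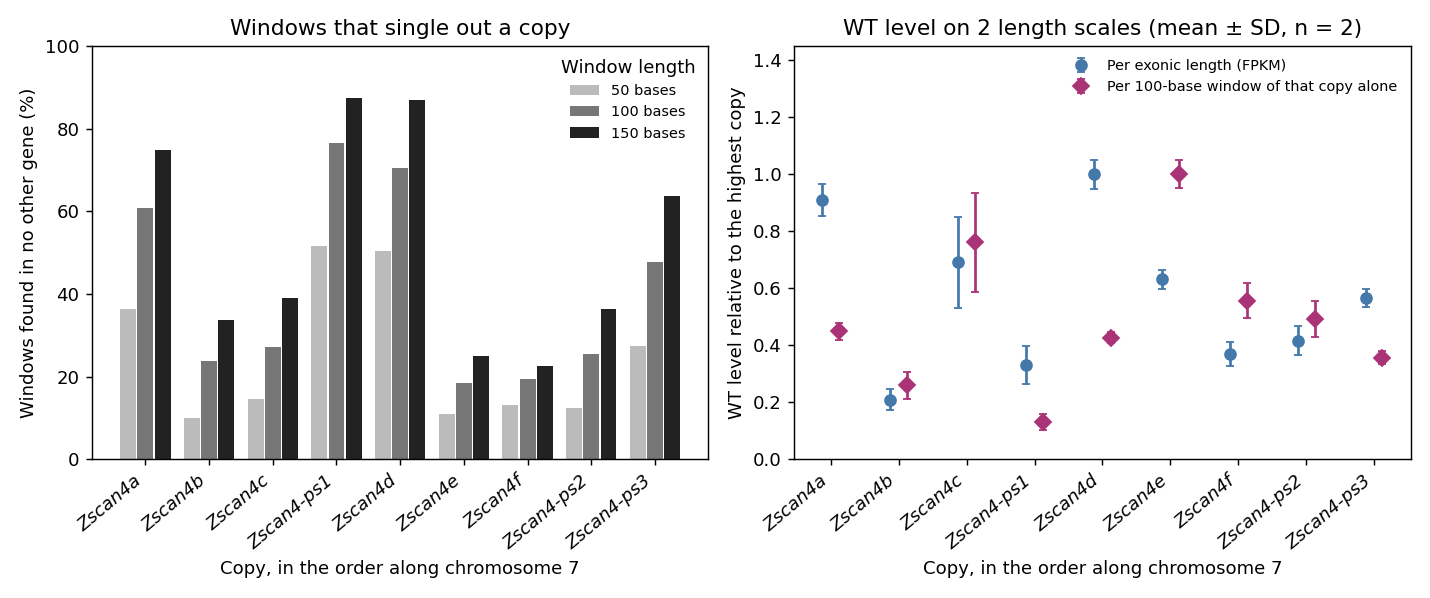
Left, percent of the 50-, 100- and 150-base windows of each copy that occur in no other annotated transcript. Right, WT level of each copy relative to the highest copy (mean ± SD, n = 2), per exonic length and per 100-base window of that copy alone: Zscan4d is highest on the first scale and Zscan4e on the second.

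Outside the family, Gm45551 was the one gene that shared any 100-base window with the copies. This pseudogene (ENSMUSG00000109916, chr7:11478208-11479567, plus strand) lay within the cluster, 34743 bases from Zscan4-ps2, and 59 of its 829 windows, or 7.12%, occurred in Zscan4 copies. It had 11 and 11 counts in WT and 26 and 23 counts in Haspin-KO, with a log2 fold change of 1.59 and a standard error of 0.39, and was not called (edgeR, adjusted p = 0.0660). Its part in the counts of the copies, or theirs in its counts, was not tested. The cluster with 200000 bases on either side held 64 other genes, and 53 of them were without a single count. Only Gm45551 and Gm18204 had enough counts to be tested, and Gm18204, 3345 bases from Zscan4d, had 15 and 12 counts in WT and 11 and 12 in Haspin-KO, with a log2 fold change of 0.22. Of the 64 neighbours, 60 did not exceed 3 counts in any library.

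Genes of the 2-cell state other than Zscan4 were described next. Of 23 listed genes 21 could be tested, with a median log2 fold change of 1.12, and in 19 both Haspin-KO libraries lay above both WT libraries, beside 25.3% of the genes tested. Tcstv3 was the lowest, at 0.02. By edgeR 4 of the 21 were called higher, beside 0.327% of the genes tested, and 0 lower. The replicate block called 12 of them higher, beside 1.54% of the genes tested. limma called 0 on log2(FPKM + 0.1), beside 0.142% of its genes called higher. It also called 0 on log2(FPKM + 1), where 0 of all 14817 genes were called higher and the median of the list was 0.66. The 4 called by edgeR were Gm5662 at 1.12 (adjusted p = 0.0320), Gm2016 at 1.15 (adjusted p = 0.0203), Gm8300 at 1.14 (adjusted p = 0.0262) and Gm5039 at 1.12 (adjusted p = 0.0178), named here after their values were seen. These 4 genes lay close to each other in level, with Haspin-KO means from 21.7 CPM in Gm5039 to 24.2 CPM in Gm5662. Whether they share reads was not tested, so that they are not taken as 4 separate observations. The largest log2 fold changes of the list were 2.66 for Sp110, 1.43 for Pramef25, 1.31 for Usp17la, a member of a family of ubiquitin-specific proteases, 1.28 for Tdpoz4 and 1.25 each for Zfp352, a zinc finger gene, and Tdpoz3, none of which was called. Sp110 had only 2 and 4 counts in WT, near the floor of 3 counts, and 13 and 16 in Haspin-KO. Haspin-KO replicate 1 stood above replicate 2 in 16 of the 21 genes, with a median difference of 0.30 on the log2 scale, beside 9 of 9 Zscan4 copies. The list was assembled with earlier results of these libraries known, and its direction is no independent evidence. With 1 library left out, the lone library was assumed to vary like the other group. The calls in the list then changed with the library left out. The median log2 fold change of the list was 1.11 without WT replicate 1 and 1.02 without WT replicate 2. It was 0.82 without Haspin-KO replicate 1 and 1.20 without Haspin-KO replicate 2.

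Genes known to switch Zscan4 on were measured next. Of 4 tested, edgeR, DESeq2 and limma called 0. The highest log2 fold change among them was that of Dppa2, an activator of the 2-cell programme. It had 100.3 and 98.5 CPM in WT and 138.9 and 130.6 CPM in Haspin-KO, a log2 fold change of 0.44 (adjusted p = 0.0221 with edgeR) that stayed under the fold threshold. Its partner Dppa4 stood at -0.08, Tbx3 at -0.01 and Nelfa at 0.16. Duxf3, the array copy of Dux, had 3, 2, 2 and 3 counts, at or under the floor of 3 counts in every library, so that no change could be seen at this depth.

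Of 19 genes known to hold the 2-cell state down, 0 were called by edgeR, and their log2 fold changes ran from -0.25 in Lin28a to 0.28 in Rif1, a telomere-associated protein that silences Zscan4, with a median of -0.03. Of 22 tested genes of telomere upkeep and recombination 0 were called, with a median of 0.01. The highest of them were Smc1b, a meiotic cohesin subunit, at 0.85, Sycp1, a protein of the synaptonemal complex, at 0.63, and Tert, the catalytic subunit of telomerase, at 0.47. The 12 other Zscan genes, which share the SCAN domain, had a median of -0.0031, and 0 were called by edgeR. DESeq2 and limma called 0 in each of these lists. At an unadjusted p under 0.05, edgeR listed 2 of the repressors, 4 of the telomere and recombination genes and 0 of the other Zscan genes. The share of all genes at that p is not given here, so that nothing is read from these counts. Haspin-KO replicate 1 stood above replicate 2 in 5 of the 19 repressors and 8 of the 22 telomere and recombination genes. It did so in 5 of the 12 other Zscan genes and 3 of the 4 activators tested.

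**Figure D5:**
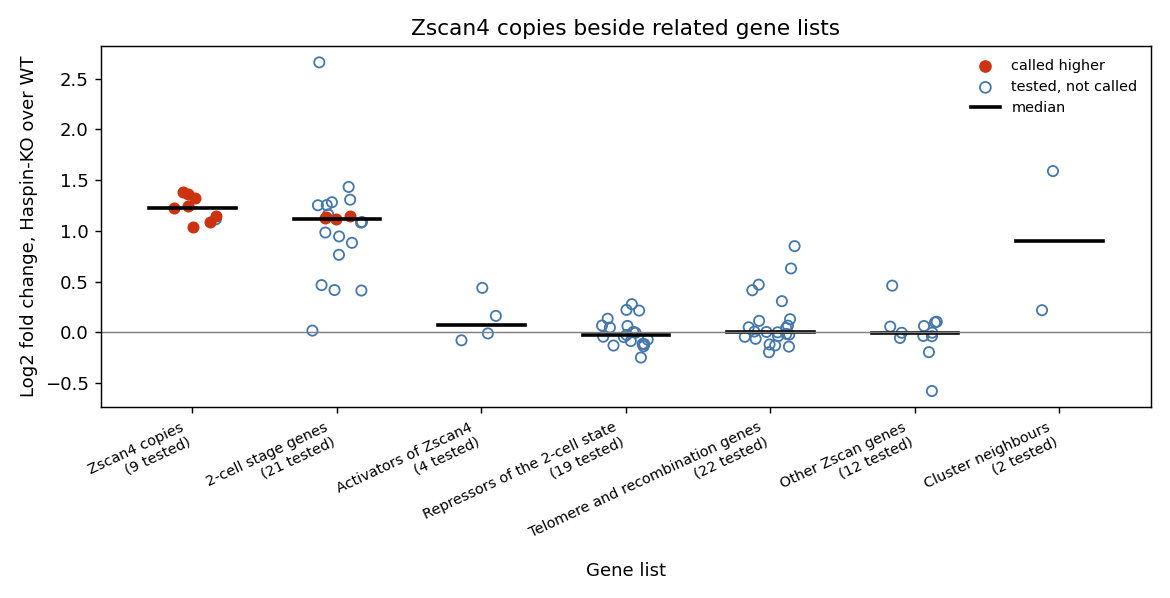
Log2 fold change of Haspin-KO over WT for the tested genes of each list, 1 point per gene, with the list median as a black bar and genes called higher by edgeR in red. The 2 cluster neighbours tested are Gm45551 and Gm18204, and the Zscan4 copies and the 2-cell stage genes have medians of 1.23 and 1.12, and the medians of the activators, repressors, telomere and recombination genes and other Zscan genes lie between -0.03 and 0.08.

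The genes whose pattern over the 4 libraries was most like that of the summed copies, by the root mean square distance of centred log2 CPM values, lay on other chromosomes, apart from Dusp8. The nearest were Gm13034 at a distance of 0.080, Abca12, a lipid transporter, at 0.081, and Kctd8 and Xlr4c at 0.087 each, beside a median of 0.64 over 15571 genes. The copies themselves stood at distances from 0.060 (Zscan4-ps3) to 0.181 (Zscan4c). Gm13034 had 6.77 and 7.61 CPM in WT and 18.3 and 15.1 CPM in Haspin-KO. Also among the 10 nearest were Itga8, Gm6673, Dusp8, Ccdc150 and Xlr4a. For the distance 0.5 CPM was added to each value, which lessens the changes of genes with few counts. The log2 fold changes were 1.22 for Gm13034, 1.18 for Xlr4c and 1.20 for Xlr4a, beside 1.24 for the sum. They were larger in genes with fewer counts, at 1.67 for Abca12, 1.81 for Kctd8, 1.71 for Itga8, 1.96 for Gm6673, 1.70 for Dusp8 and 2.06 for Ccdc150. Over 4 libraries such likeness is a description only.

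Across the series, library totals ran from 14207828 to 21834847 counts, so that 3 counts, the smallest number taken as shown, stood for 0.137 to 0.210 CPM, below each copy in each library. Haspin itself had 875 and 619 counts in WT and 149 and 209 in Haspin-KO, or -1.60 on the log2 scale with a standard error of 0.16 (edgeR, adjusted p = 0.00154). The summed level of 7 mESC markers was 4936 to 5386 CPM in the 4 libraries. Per the paper, the cells were kept on feeder fibroblasts for passage or on gelatin for assays. It does not say which was used for RNA-seq. Of 12 markers of feeder fibroblasts, 7 were called lower in Haspin-KO, beside 0.501% of the genes tested. Thy1 and Pdgfrb were not called, at -0.51 and -0.85. Lum had no count in any library, and Dcn and Twist2 had at most 4 and 3. The summed level of the 12 was 203.3 and 147.6 CPM in WT against 13.2 and 10.3 CPM in Haspin-KO. In the Haspin-KO libraries 5 and 6 of the 12 were at 0, against 1 in each WT library. This fall went with the groups in the same libraries as the Zscan4 values, and its part in them was not tested. The 7 markers of primitive endoderm summed to 42.2 and 35.1 CPM in WT and 44.6 and 30.7 CPM in Haspin-KO.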

How the data were processed

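RNA-seq was compared between 2 WT and 2 Haspin-KO libraries, grouped by their labels. The authors deposited raw counts per gene and FPKM, which equalled counts divided by exonic length and library total in 100% of values, within 0.0051 FPKM. Per the submitters' processing notes, cutadapt (1.9.1), HISAT2 (2.0.1), HTSeq (0.6.1), DESeq2 and mm10 were used, without their settings. The annotation release, strand setting and treatment of reads mapping to several places were not given in the sources used here. The exonic length per gene that the authors deposited equalled that of GENCODE release 21 in 99.03% of shared genes and in the 9 copies.

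The quasi-likelihood test of edgeR (4.0.16; R 4.3.3) was applied to the 15580 genes kept by filterByExpr, after TMM scaling and without a replicate block. A gene was called at a Benjamini-Hochberg adjusted p under 0.05 over all genes tested and a fold change over 2. CPM used TMM-scaled totals. The family sum was fitted in place of its rows. The fit was tested on simulated data. Windows and identities were computed from GENCODE transcripts (mafft 7.526), promoters taken from RefSeq. Named were the rows starting with Zscan4, Haspin, per list at most 6 genes with the largest absolute log2 fold changes (beside these, genes of the lists called or at their lower end, and Gm17737, were named after their values were seen), and the 10 genes nearest to the sum, 1 of which is not reported here. The members and lists were chosen with earlier results of these data known. Alternatives were DESeq2 (1.42.0), limma (3.58.1) on log2(FPKM + 0.1) and log2(FPKM + 1), other scalings, no filter, a replicate block and leaving out each library. Intervals cover counting error only.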

Additional observations from a re-analysis of the deposited data

How the results depend on the processing

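The log2 fold change of the summed copies stayed above 1 under each alternative tried. It ran from 1.03 without Haspin-KO replicate 1 to 1.42 without Haspin-KO replicate 2, was 1.23 with the replicate block, and was 1.24 with Gm45551 and Gm17737 added to the sum, an alternative chosen after seeing the data, like the sums of close copies alone, at 1.21 and 1.31. The 99 values of single copies under the alternatives lay between 0.77 and 1.63. The number of copies called was 0 with limma on either log2(FPKM + 0.1) or log2(FPKM + 1), beside 21 and 0 of 14817 genes called higher. In these limma fits 9 and 5 copies were higher at an unadjusted p under 0.05 with a fold change over 2. Of all 14817 genes, 203 and 53 were. As the family was chosen on this contrast, nothing is read from these counts. Of the 2-cell stage genes, 9 were called without the filter on low counts, 12 with the replicate block, 0 with limma at either pseudocount and 0 to 10 with each library left out, beside 4 in the report. The median of that list was 0.66 with limma on log2(FPKM + 1). The labels number the replicates without saying that a number marks a shared culture or day. Over all genes tested, the differences between replicates 1 and 2 in WT and in Haspin-KO had a correlation of 0.338, and the block raised the genes called higher from 51 to 240, and the copies among them from 8 to 9. The ratio of Zscan4d to Zscan4b, the highest and lowest copy on the first scale only, was 5.39 per exonic length and 1.86 per window. The median percent of windows belonging to a single copy was 14.5 at 50 bases and 39.0 at 150 bases. The cause of these shifts was not tested, other than that limma was run on fewer genes (14817). The depth limits Zscan4b most, with 55 counts in its lowest library, and 2 libraries per group limit each comparison.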
